A study of Homo sapiens with 12 samples.

Results

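The 9 genes described here encode efflux transporters of the liver cell, the pumps that move drugs, conjugates and bile constituents out of the cell: ABCB1, ABCC2, ABCG2, SLC47A1, ABCB11, ABCB4, ABCC3, ABCC4 and ABCC6. They were taken by symbol from the deposited expression table, in which each had exactly 1 row, so that they are 9 of its 15822 loci. All 9 passed the filter on low values (at least 1 CPM in at least 2 libraries) and are among the 15792 loci tested. RNA sequencing was done on 12 libraries of HepaRG cells, a human hepatoma line that forms cultures of hepatocyte-like and biliary-like cells. The groups were hCAR-KO cells (KO, cells without the human constitutive androstane receptor, CAR) given PB (phenobarbital), CITCO (a synthetic CAR agonist) or DMSO (the solvent), and WT cells given PB, CITCO or DMSO. Each group held 2 libraries, all of 1 cell line. The sources used here give no doses, exposure times, position of the edit or number of KO clones. Whether duplicates were separate cultures is not labelled, so the p-values speak of library-to-library spread alone, possibly technical.

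Hepatocytes export compounds across 2 membrane faces. The canalicular face opens to bile and carries ABCB1, ABCC2, ABCG2, SLC47A1, the bile salt pump ABCB11 and the phospholipid translocator ABCB4. The face toward the blood carries ABCC3, ABCC4 and ABCC6. CAR (gene NR1I3) and the pregnane X receptor PXR (gene NR1I2) are nuclear receptors that sense drugs and bind, with the partner RXRA, to DNA of target genes that include ABCB1 and ABCC2. The bile acid receptor FXR (gene NR1H4) is the main known activator of ABCB11. PB is known to activate CAR indirectly and PXR as well. CITCO is known as a direct ligand of human CAR, and whether it acted on other receptors here was not tested. The comparisons asked which transporter responses to the drugs were present without CAR and how the transporters differed between the genotypes.

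Start-site sequences are shown for the 3 genes on which the results below turn, because nuclear receptors of this family recognise short hexamers known as half-sites. RefSeq gave promoter windows of 300 bases (GRCh38.p14) for 6 of the 9 genes, ABCB1, ABCC2, ABCG2, ABCB11, ABCC4 and ABCC6, with 12 windows in all. The first ABCB1 window lies at chr7:87713246-87713545 on the minus strand, and capitals mark AGTTCA, a half-site that begins at position -60 from the start site. The second ABCB1 window, at chr7:87600835-87601134 on the minus strand, belongs to a start site inside the gene and held no half-site match. The ABCC2 window lies at chr10:99782390-99782689 on the plus strand, with GGGTCA in capitals at position -157. The ABCB11 window lies at chr2:169031275-169031574 on the minus strand, and capitals mark TGAACT, the reverse complement of a half-site, at position -89 and an IR-1 element, the inverted repeat that FXR is known to bind, at position -65.
ABCB1, outer start: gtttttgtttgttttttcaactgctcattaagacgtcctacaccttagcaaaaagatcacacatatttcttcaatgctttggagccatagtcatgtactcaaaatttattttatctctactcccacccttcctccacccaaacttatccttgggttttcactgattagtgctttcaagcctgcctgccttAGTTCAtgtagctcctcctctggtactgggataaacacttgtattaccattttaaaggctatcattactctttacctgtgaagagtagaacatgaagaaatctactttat
ABCB1, inner start: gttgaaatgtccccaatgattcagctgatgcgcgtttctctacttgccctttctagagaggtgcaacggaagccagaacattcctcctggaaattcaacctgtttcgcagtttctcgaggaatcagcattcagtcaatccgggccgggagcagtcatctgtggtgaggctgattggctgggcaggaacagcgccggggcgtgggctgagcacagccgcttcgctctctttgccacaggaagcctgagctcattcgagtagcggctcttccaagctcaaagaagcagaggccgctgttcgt
ABCC2: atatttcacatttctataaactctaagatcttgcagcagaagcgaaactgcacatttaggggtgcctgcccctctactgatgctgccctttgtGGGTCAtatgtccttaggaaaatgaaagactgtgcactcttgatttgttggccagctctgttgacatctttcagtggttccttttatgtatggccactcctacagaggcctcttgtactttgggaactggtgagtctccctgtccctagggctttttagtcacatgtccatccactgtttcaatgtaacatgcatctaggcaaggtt
ABCB11: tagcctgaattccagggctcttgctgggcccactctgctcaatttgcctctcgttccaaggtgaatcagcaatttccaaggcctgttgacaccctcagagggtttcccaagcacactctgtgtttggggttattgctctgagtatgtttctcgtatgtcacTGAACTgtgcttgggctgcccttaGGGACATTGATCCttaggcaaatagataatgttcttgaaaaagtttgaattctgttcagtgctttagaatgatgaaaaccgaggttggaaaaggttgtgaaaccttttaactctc
The half-sites searched, on both strands, were AGGTCA and AGTTCA, and beside these also GGGTCA and lastly GGTTCA, and 38.6% of 35116 promoter windows of this length held at least 1. The IR-1 pattern, written with the ABCB11 promoter in view, matched 68 windows on either strand (0.194%). It does not overlap the half-site match at position -89. Windows of ABCG2 and ABCC6, whose sequences are not printed, also held half-site matches, and the ABCC4 window held none. A match is a run of letters and not a shown binding site.

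Values are CPM as deposited, read counts per library size adjusted by normalization factors, and every fold change is on the log2(CPM + 0.5) scale from a limma fit to all 12 libraries. A gene was called when its Benjamini-Hochberg adjusted p over all 15792 loci was under 0.05. The libraries held 49.3 to 66.5 M (mega) reads in the table. The least abundant of the 9 genes, ABCG2, rested on 159 to 502 reads per library, and ABCC2, at the other end, on 12665 to 40227 reads. CYP2B6, the drug-metabolising enzyme used as the classical marker of CAR activity, averaged 228 CPM in KO PB, 16.8 in KO CITCO and 9.59 in KO DMSO libraries, against 445 in WT PB, 430 in WT CITCO and 36.1 in WT DMSO libraries. NR1I3 itself averaged 15.9, 10.2 and 10.8 CPM in KO PB, CITCO and DMSO libraries and 15.1, 9.51 and 11.7 CPM in the WT ones. With no position of the edit, this transcript level checks nothing about the genotype. Duplicates differed by more than sampling noise in all 6 groups, so each library was counted once.

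Per kilobase of exon in the GENCODE 29 annotation, the transporters spanned a wide range of levels. In KO DMSO libraries the mean level per kilobase was highest for ABCC3 (32.9 CPM per kb), then ABCC2 (27.0) and ABCB1 (15.6), and lowest for ABCC4 (1.68) and ABCG2 (0.522). In WT DMSO libraries ABCC3 (43.4 CPM per kb) and ABCC2 (42.7) lay close together, followed by ABCB1 (23.5), ABCC6 (21.7), SLC47A1 (14.2) and ABCB4 (13.0). ABCB11 had 6.11 CPM per kb in KO DMSO and 2.42 in WT DMSO libraries, so that in WT cells it stood close to ABCC4 (2.20) and above ABCG2 (1.06). Exon lengths are those of all annotated exons merged, which may be longer than the transcripts these cells make.

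**Figure D1:**
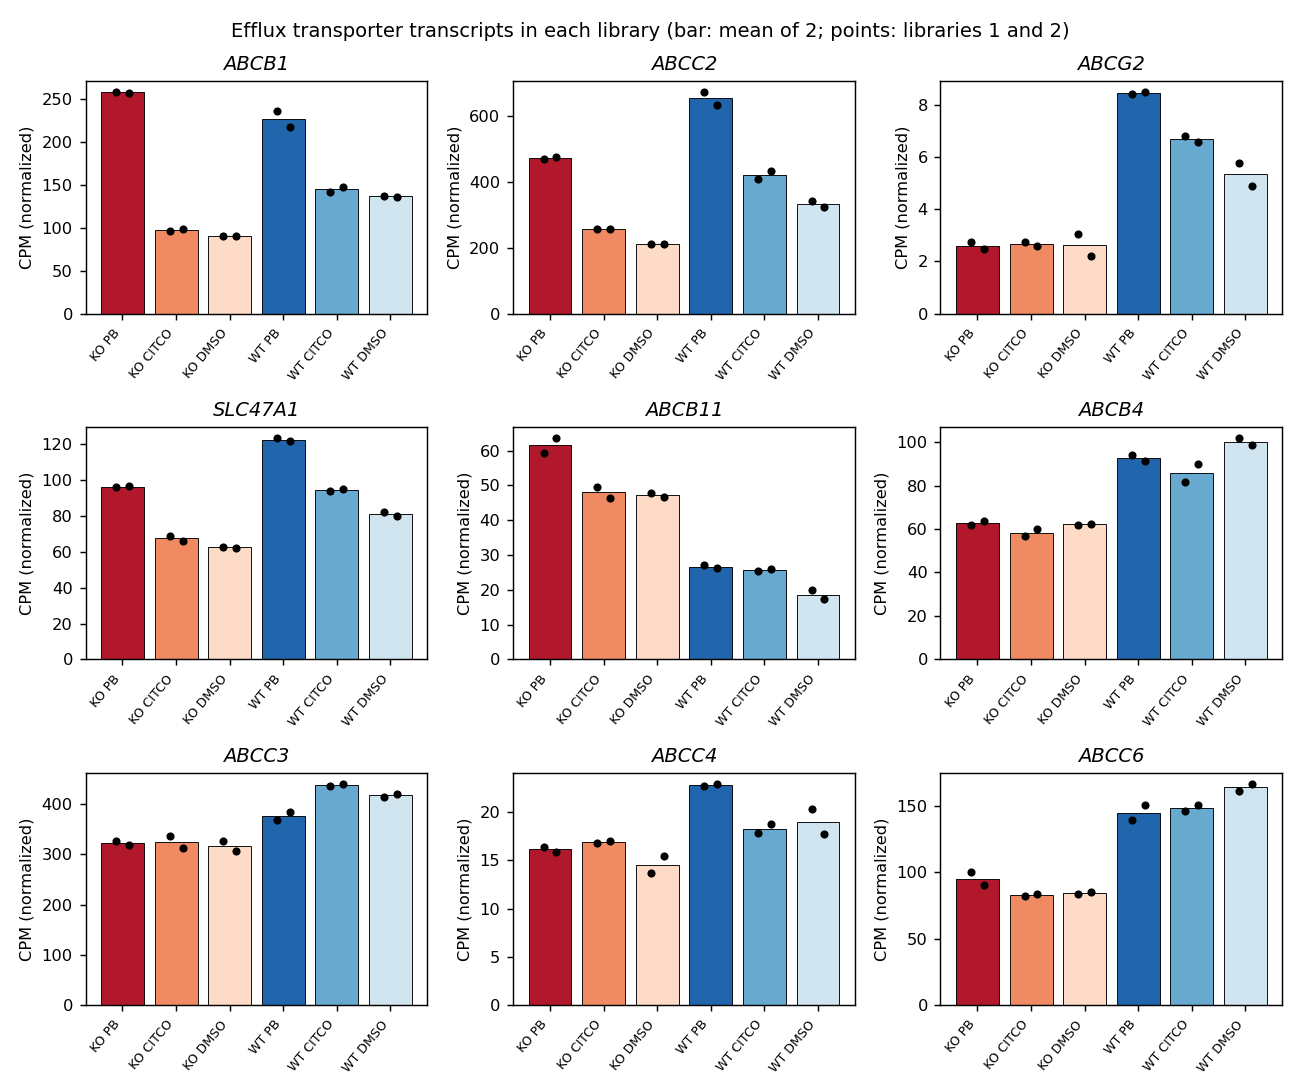
Level of each of the 9 transporters in CPM (vertical axis of each panel) in the 12 libraries, by group (horizontal axis), 1 point per library with a bar at the group mean. ABCB1 reached 258 and 257 CPM in KO PB libraries, above every other library, whereas ABCB11 lay higher in all 6 KO libraries (46.4 to 63.6 CPM) than in all 6 WT libraries (17.4 to 27.1 CPM).

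PB raised the canalicular drug exporters, in KO cells as in WT cells for 3 of the 4. ABCB1, ABCC2 and SLC47A1 rose in both genotypes, while ABCG2 rose in WT cells and had no called change in KO cells. ABCB1 (locus XLOC_047315, chromosome 7, 87503633 to 87713323, minus strand, GRCh38 as are the other places below) encodes P-glycoprotein, which exports bulky hydrophobic drugs. It measured 258 and 257 CPM in KO PB, 96.0 and 98.9 CPM in KO CITCO and 90.3 and 90.5 CPM in KO DMSO libraries. In WT cells it measured 237 and 217 CPM with PB, 142 and 148 CPM with CITCO and 138 and 136 CPM with DMSO. No 2 of the 6 groups overlapped, and their order was KO PB, WT PB, WT CITCO, WT DMSO, KO CITCO and KO DMSO. PB against DMSO gave log2 1.51 in KO cells (SE 0.0446, limma adjusted p = 4.08e-14) and 0.73 in WT cells (SE 0.0446, adjusted p = 3.30e-09). CITCO against DMSO passed the test in neither genotype, with log2 0.11 in KO cells (95% interval 0.01 to 0.20, adjusted p = 0.375) and 0.08 in WT cells (-0.01 to 0.18, adjusted p = 0.374).

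ABCC2 (XLOC_005841, chromosome 10, 99782640 to 99852594, plus strand) encodes MRP2, which carries bilirubin glucuronides and other conjugates into bile. It was the 1 member called in all 4 drug comparisons. Its levels were 472 and 477 CPM in KO PB, 257 and 257 CPM in KO CITCO and 212 and 211 CPM in KO DMSO libraries. The WT libraries had 674 and 636 CPM with PB, 410.1 and 434 CPM with CITCO and 344 and 325 CPM with DMSO. All 6 groups were apart from their neighbours in the order WT PB, KO PB, WT CITCO, WT DMSO, KO CITCO and KO DMSO. PB raised it by log2 1.16 in KO cells (adjusted p = 4.33e-13) and by 0.97 in WT cells (adjusted p = 9.94e-12). CITCO raised it by log2 0.28 in KO cells (SE 0.0404, adjusted p = 0.00142) and by 0.34 in WT cells (SE 0.0404, adjusted p = 7.24e-05). The KO call with CITCO was lost (adjusted p = 0.143) when the prior spread was held constant over expression levels instead of following a trend.

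SLC47A1 (XLOC_020963, chromosome 17, 19495385 to 19579034, plus strand) encodes MATE1, a proton exchanger that secretes organic cations such as metformin. It had 95.9 and 96.6 CPM in KO PB, 68.9 and 66.2 CPM in KO CITCO and 62.6 and 62.3 CPM in KO DMSO libraries. WT libraries had 123 and 121 CPM with PB, 93.8 and 94.9 CPM with CITCO and 82.2 and 80.0 CPM with DMSO. Its 6 groups stood in the same order as those of ABCC2, again with no overlap of neighbours. PB raised it by log2 0.62 in KO cells (SE 0.0445, adjusted p = 2.37e-08) and by 0.59 in WT cells (SE 0.0445, adjusted p = 4.96e-08). CITCO raised it in WT cells (log2 0.22, adjusted p = 0.0120), a call lost without WT CITCO 1 (adjusted p = 0.113) or WT CITCO 2 (adjusted p = 0.140) and in edgeR on the WT reads (0.0578). In KO cells the CITCO difference was log2 0.11 (95% interval 0.02 to 0.21, adjusted p = 0.344). An antisense RNA, AC025627.1, shares 203 exon bases with SLC47A1, and the sources used here do not say whether counting used strand.

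ABCG2 (XLOC_039000, chromosome 4, 88090264 to 88231322, minus strand) encodes the breast cancer resistance protein, an exporter of sulfated conjugates and urate. It was rare, at 2.73 and 2.48 CPM in KO PB, 2.73 and 2.59 CPM in KO CITCO and 3.06 and 2.20 CPM in KO DMSO libraries. WT libraries held 8.41 and 8.48 CPM with PB, 6.79 and 6.57 CPM with CITCO and 5.78 and 4.91 CPM with DMSO. The 3 KO groups overlapped each other and lay below every WT library, and the 3 WT groups were apart. PB raised ABCG2 in WT cells (log2 0.62, SE 0.139, adjusted p = 0.00964), a call lost without WT DMSO 2 (adjusted p = 0.0706). In KO cells the PB difference was 0.00 with a 95% interval of -0.29 to 0.29 (adjusted p = 0.999), and total scaling turned it to -0.03. CITCO against DMSO did not pass, at log2 0.03 (adjusted p = 0.980) in KO cells and at 0.30 (adjusted p = 0.294) in WT cells.

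The exporters of bile salts and phospholipid moved apart from each other. ABCB11 rose with PB in both genotypes and with CITCO in WT cells, and ABCB4 rose in none of the drug comparisons. ABCB11 (XLOC_030321, chromosome 2, 168915498 to 169031324, minus strand) encodes the bile salt export pump. It measured 59.3 and 63.6 CPM in KO PB, 49.5 and 46.4 CPM in KO CITCO and 47.7 and 46.7 CPM in KO DMSO libraries. WT libraries measured 27.1 and 26.3 CPM with PB, 25.3 and 25.9 CPM with CITCO and 19.8 and 17.4 CPM with DMSO. KO CITCO overlapped KO DMSO, whereas WT CITCO lay above WT DMSO and just below WT PB. PB gave log2 0.38 in KO cells (SE 0.0681, adjusted p = 0.00139) and 0.51 in WT cells (SE 0.0681, adjusted p = 7.54e-05). CITCO gave 0.02 in KO cells (95% interval -0.12 to 0.17, adjusted p = 0.956) and 0.45 in WT cells (95% interval 0.31 to 0.60, adjusted p = 0.000804).

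ABCB4 (XLOC_047314, chromosome 7, 87401697 to 87480435, minus strand) encodes MDR3, which moves phosphatidylcholine into bile and thereby shields the duct lining from bile salts. It lies 23197 bases from ABCB1 on the same strand. It had 61.8 and 63.6 CPM in KO PB, 56.7 and 59.9 CPM in KO CITCO and 62.0 and 62.4 CPM in KO DMSO libraries, against 93.8 and 91.3, 81.8 and 89.8, and 102 and 98.6 CPM in WT PB, WT CITCO and WT DMSO libraries. All 6 WT libraries were above all 6 KO libraries. CITCO lowered it in WT cells (log2 -0.22, SE 0.0528, adjusted p = 0.0318). That call was lost with total scaling (adjusted p = 0.0612), in edgeR on the WT reads (0.145), and without KO PB 1, KO PB 2, WT CITCO 1 or WT DMSO 1 (highest adjusted p 0.373). With PB the difference was 0.01 in KO cells (adjusted p = 0.942), -0.02 with total scaling, and -0.11 in WT cells (adjusted p = 0.246).

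The exporters toward the blood changed little with either drug. ABCC3 (XLOC_021539, chromosome 17, 50634777 to 50692252, plus strand) encodes MRP3, which returns glucuronides to the blood. It had 327 and 318 CPM in KO PB, 336 and 313 CPM in KO CITCO and 327 and 307 CPM in KO DMSO libraries, against 368 and 384, 435 and 440.5, and 413 and 421 CPM in WT PB, WT CITCO and WT DMSO libraries. The 3 KO groups overlapped, and the 3 WT groups did not. PB lowered ABCC3 in WT cells by a small amount (log2 -0.15, SE 0.0421, adjusted p = 0.0412). This was lost without any 1 of KO PB 1, KO PB 2, WT PB 1, WT CITCO 1, WT CITCO 2, WT DMSO 1 and WT DMSO 2 (highest adjusted p 0.185) and in edgeR on the WT reads (0.0857). In KO cells the PB difference was 0.03 (adjusted p = 0.812) and fell on the other side of 0 with total scaling (-0.0045).

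ABCC4 (XLOC_014162, chromosome 13, 95019829 to 95301475, minus strand) encodes MRP4, an exporter of cyclic nucleotides and bile salts. It was called in none of the 4 drug comparisons. It had 16.3 and 15.9 CPM in KO PB, 16.8 and 17.0 CPM in KO CITCO and 13.7 and 15.4 CPM in KO DMSO libraries, against 22.7 and 22.9, 17.8 and 18.7, and 20.3 and 17.7 CPM in WT PB, WT CITCO and WT DMSO libraries. WT PB stood above the other WT groups, which overlapped. PB against DMSO gave log2 0.15 in KO cells (adjusted p = 0.391) and 0.26 in WT cells (95% interval 0.09 to 0.44, adjusted p = 0.0759). The WT difference became a call without WT DMSO 1 (log2 0.36, adjusted p = 0.0301). The authors' deposited table gives it an FDR of 0.0391. For the same comparison that table leaves ABCC3 (FDR 0.152) and ABCC6 (0.108) uncalled at 0.05.

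ABCC6 (XLOC_019817, chromosome 16, 16148928 to 16223522, minus strand) encodes MRP6, whose loss causes the mineralisation disorder pseudoxanthoma elasticum. It had 100.2 and 90.2 CPM in KO PB, 82.0 and 83.5 CPM in KO CITCO and 83.6 and 85.1 CPM in KO DMSO libraries. In WT cells it had 139 and 151 CPM with PB, 146 and 151 CPM with CITCO and 162 and 167 CPM with DMSO. The KO PB libraries lay above the other KO libraries, while the WT PB libraries lay below the WT DMSO ones. PB gave log2 0.17 (adjusted p = 0.0575) in KO cells, and -0.18 (adjusted p = 0.0471) in WT cells. That fall was kept as a call only without KO PB 1, KO PB 2 or WT PB 2 and was lost without each of the other 9 libraries (highest adjusted p 0.258). The KO difference became a call without any 1 of KO PB 2, WT PB 1, WT PB 2, WT DMSO 1 and WT DMSO 2 (lowest adjusted p 0.0279). The near-identical copies ABCC6P1 and ABCC6P2 make these values uncertain, because reads may have been split among the 3. ABCC6P1 averaged 45.9 CPM in KO PB and 40.8 CPM in KO DMSO libraries (log2 0.17, adjusted p = 0.0964), and 57.1 CPM in WT PB and 63.4 CPM in WT DMSO libraries (log2 -0.15, adjusted p = 0.145).

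**Figure D2:**
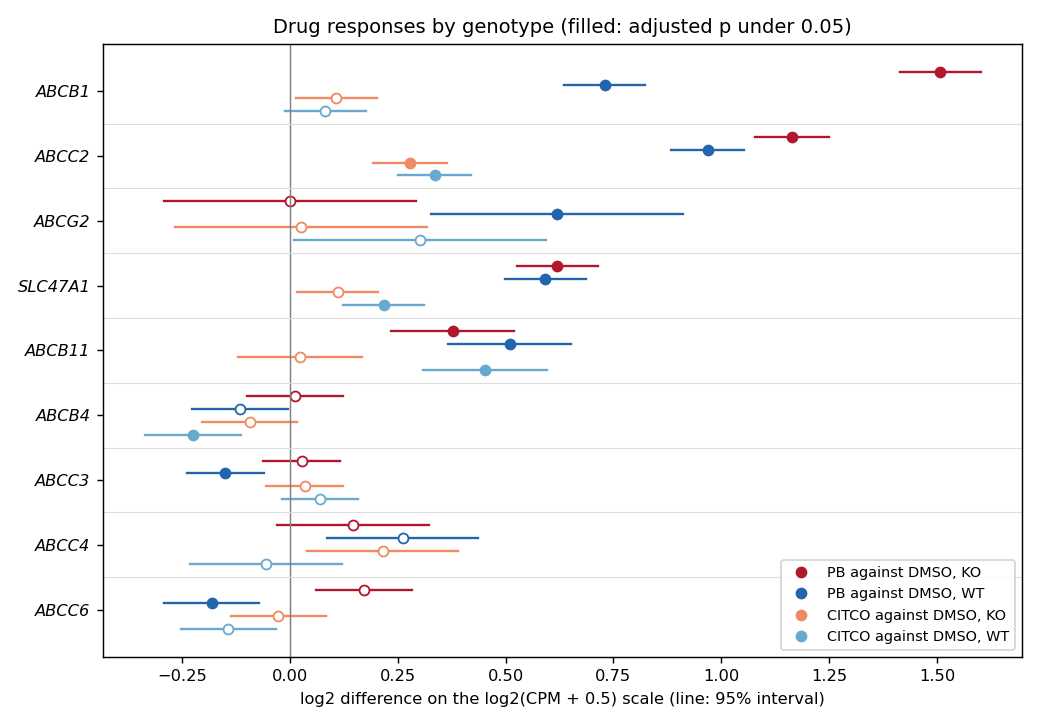
Drug responses of the 9 transporters as log2 fold changes against DMSO on the log2(CPM + 0.5) scale (horizontal axis), with 95% intervals, for PB and CITCO in KO and in WT cells; filled points passed an adjusted p of 0.05. ABCB1 and ABCC2 with PB in KO cells lie farthest to the right, at 1.51 and 1.16, and the ABCC3 points stay within 0.15 of 0.

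Counted over the transporters, PB in KO cells raised 4 of 9, and the other 5 did not pass. Among all loci, 3.87% were called higher and 3.09% lower in that comparison, and the median log2 difference was 0.17 over the 9 and 0.00 over all loci. In WT cells PB raised 5 of 9 and lowered 2, against 2.66% of all loci called higher and 3.76% called lower, with medians of 0.51 and 0.00. The WT PB count of 7 fell to 4 without WT DMSO 2, and both lowered calls, ABCC3 and ABCC6, were lost in edgeR, in DESeq2, with a constant prior spread and in a fit restricted to the compared libraries. CITCO in KO cells raised 1 of 9, ABCC2, against 0.386% of all loci called higher and 0.424% called lower. In WT cells it raised 3 of 9 and lowered 1, ABCB4, against 1.18% called higher and 1.02% called lower. The WT CITCO count fell to 2 in edgeR, with a constant prior spread, in a fit restricted to the compared libraries, and without WT CITCO 1. For CITCO in WT cells edgeR called 0.894% of all loci, the constant prior spread 0.608% and the restricted fit 1.05%. All 4 drug comparisons use the DMSO libraries of their genotype for both drugs. Of all calls, total scaling moved the share that was higher to 40.4% for KO PB (55.6% as deposited), 60.7% for KO CITCO (47.7%) and 71.4% for WT CITCO (53.7%).

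Set directly against each other, PB and CITCO differed most at ABCB1 and ABCC2. The sources used here give no doses, so the comparison is of the treatments as applied. In KO cells PB was higher than CITCO for 5 of 9 transporters, against 3.57% of all loci higher and 1.91% lower. These were ABCB1 (log2 1.40, adjusted p = 1.87e-13), ABCC2 (0.88, adjusted p = 3.53e-11), SLC47A1 (0.51, adjusted p = 4.19e-07), ABCB11 (0.35, adjusted p = 0.00309) and ABCC6 (0.20, adjusted p = 0.0318). The call for ABCB11 was lost without KO PB 2 (adjusted p = 0.0872) or KO CITCO 2 (0.0725). That for ABCC6 was lost without KO PB 1, KO CITCO 1, KO CITCO 2, WT CITCO 1 or WT CITCO 2, with a lowest log2 value of 0.12 and a highest adjusted p of 0.448. The count was 3 of 9 without KO CITCO 2.

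In WT cells PB was higher than CITCO for 4 of 9 transporters and lower for 1, against 2.65% of all loci higher and 3.63% lower. ABCB1 (log2 0.65, adjusted p = 6.03e-08), ABCC2 (0.63, adjusted p = 2.65e-08) and SLC47A1 (0.37, adjusted p = 3.78e-05) were higher with PB. ABCC4 (0.32, adjusted p = 0.0307) was also higher, a call lost without any 1 of the KO PB, WT PB and WT CITCO libraries (highest adjusted p 0.219). ABCC3 (-0.22, adjusted p = 0.00337) was lower with PB than with CITCO, a call lost without WT CITCO 2 (adjusted p = 0.0547), and the count was then 3 of 9. For ABCB11 the PB minus CITCO difference in WT cells was 0.06 with a 95% interval of -0.09 to 0.20 (adjusted p = 0.712). Total scaling moved the higher share of all calls to 39.4% in KO cells (65.1% as deposited) and to 20.9% in WT cells (42.2%).

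Whether a response differed between the genotypes was tested as the KO response minus the WT response. For PB this difference was called for 2 of the 9 transporters, both positive, against 0.798% of all loci positive and 0.209% negative. ABCB1 responded more in KO cells, by log2 0.78 (SE 0.0631, adjusted p = 1.90e-06). ABCC6 differed by log2 0.35 (SE 0.0741, adjusted p = 0.0248), with a higher value in KO PB than KO DMSO libraries and a lower value in WT PB than WT DMSO libraries. The ABCC6 call was lost without KO PB 1 (adjusted p = 0.208), KO DMSO 1 (0.101), KO DMSO 2 (0.0755) or WT PB 1 (0.0770). For its copy ABCC6P1 the same difference was 0.32 (adjusted p = 0.0835). SLC47A1 had almost the same PB response in both genotypes, with a difference of 0.03 and a 95% interval of -0.10 to 0.16. ABCC2 differed by 0.20 (95% interval 0.07 to 0.32, adjusted p = 0.162).

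ABCG2 had the widest negative difference in the PB response, log2 -0.62 with a 95% interval of -1.03 to -0.21 (adjusted p = 0.227), so a loss of its PB response in KO cells was not called here. The authors' deposited table named for KO PB against WT PB gives ABCG2 -0.66 with FDR 0.0224. Over the 9 transporters the values of that deposited table lie within 0.0455 (log2) of the difference of PB responses computed here and 0.369 to 1.33 away from the named comparison. They are therefore read as differences of responses.

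For CITCO the difference of responses was called by limma for 0 of 9 transporters, against 0.108% of all loci positive and 0.228% negative. At an unadjusted p under 0.05 there were 2, ABCB11 and ABCC4, and 1996 of the 15792 loci. Count models were run on the WT libraries alone and give no value for it. ABCB11 differed by log2 -0.43 (95% interval -0.63 to -0.23, adjusted p = 0.0754). The difference was called without WT PB 1 (adjusted p = 0.0440), WT PB 2 (0.0438) or WT DMSO 1 (0.0174). The authors' deposited table named for KO CITCO against WT CITCO, whose values for the 9 genes lie within 0.0205 of the difference of CITCO responses, gives ABCB11 -0.44 with FDR 0.0155. ABCC4 differed by 0.27 (95% interval 0.02 to 0.52, adjusted p = 0.361). ABCC2, which rose with CITCO in both genotypes, differed by -0.06 (95% interval -0.18 to 0.06, adjusted p = 0.717).

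**Figure D3:**
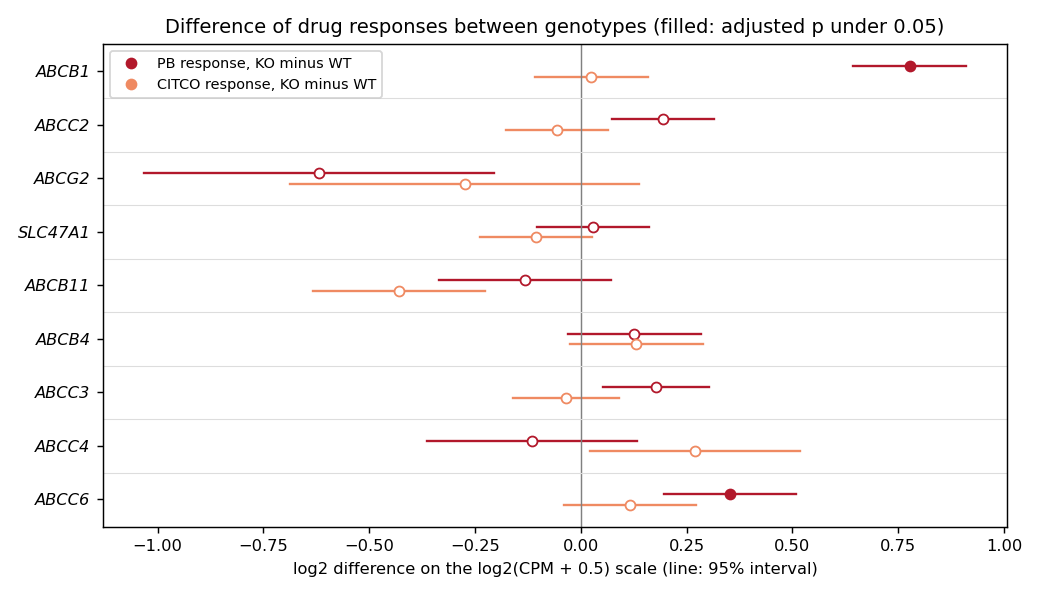
KO minus WT difference of the PB response and of the CITCO response for each transporter (log2, horizontal axis), with 95% intervals; filled points passed an adjusted p of 0.05. ABCB1 (0.78) and ABCC6 (0.35) are the called points, both for PB, and ABCB11 with CITCO lies at -0.43 without a call.

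Between the genotypes most transporters were lower in KO cells, and ABCB11 was higher in KO cells under every treatment. Under DMSO 8 of 9 were lower in KO cells and 1 higher, in a comparison in which 29.4% of all loci were called lower and 28.3% higher. With so many loci called, the count says little about transporters, although the median over the 9 was -0.59 and that over all loci 0.00. In bulk RNA fewer cells of a type and less RNA per cell cannot be told apart. With each library scaled to its total, the median over all loci of KO minus WT becomes 0.247 under DMSO, 0.239 under PB and 0.234 under CITCO, against 0.00 in each as deposited. It also moves the higher share of all calls to 78.2% under DMSO (49.0% as deposited), 77.4% under PB (50.4%) and 76.3% under CITCO (49.6%).

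ABCB11 differed by log2 1.32 between KO DMSO and WT DMSO cells (SE 0.0681, adjusted p = 1.10e-11) and by 1.58 with total scaling. The difference was 1.19 under PB and 0.89 under CITCO. ABCC6 (-0.96, adjusted p = 2.62e-11), ABCG2 (-0.91, adjusted p = 1.93e-05) and ABCB4 (-0.68, adjusted p = 3.18e-09) were the members most reduced in KO DMSO cells. They stayed lower with total scaling, at -0.69, -0.68 and -0.42. ABCC6P1 and ABCC6P2 were also lower in KO DMSO cells, by -0.63 and -0.61. ABCB1 (-0.59) and ABCC2 (-0.66) were lower too, at -0.33 and -0.39 with total scaling. The smaller reductions of ABCC3 (-0.40) and SLC47A1 (-0.37) shrank to -0.13 and -0.11 with total scaling, still called, and that of ABCC4 (-0.37, adjusted p = 0.00089) shrank to -0.12 and was lost (adjusted p = 0.233).

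Under PB 7 of 9 were lower and 2 higher in KO cells, against 28.9% of all loci lower and 29.4% higher. ABCB1 changed sides, being log2 0.18 higher in KO PB than WT PB cells (adjusted p = 0.00178; 0.44 with total scaling), whereas under DMSO it was lower in KO cells. ABCG2 differed most, at -1.53 (SE 0.139, adjusted p = 2.76e-08). The lower level of ABCC3 under PB (-0.22, adjusted p = 0.000203) turned to 0.03 with total scaling and was no longer called (adjusted p = 0.520), and that of SLC47A1 (-0.34) shrank to -0.09 (adjusted p = 0.0648). Under CITCO 7 of 9 were lower and 1 higher in KO cells, against 29.8% of all loci lower and 29.3% higher. ABCC4 was uncalled there (log2 -0.10, adjusted p = 0.300) and lay at 0.14 with total scaling (adjusted p = 0.147). ABCC2 differed by -0.72, ABCG2 by -1.18 and ABCC6 by -0.84.

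Marker genes of the cell types moved with genotype, as did many other loci. Of all loci, 29.4% were called lower and 28.3% higher in KO DMSO than in WT DMSO cells. The counts of called markers below are to be read against these shares. The summed level of 9 hepatocyte markers (of 10 listed; TF was not among the loci) was 73573 to 78091 CPM over the KO libraries and 151988 to 170500 CPM over the WT libraries, mostly albumin. Between KO DMSO and WT DMSO cells ALB, APOA1, APOB, SERPINA1, CPS1 and ASGR1 were lower in KO cells and HP and FGB higher. The sum of 6 biliary or progenitor markers (of 11 listed) was 253 to 285 CPM in KO and 574 to 656 CPM in WT libraries, of which KRT19 took 83.9 CPM in KO DMSO and 407 CPM in WT DMSO cells. The sum does not speak for the list, since 3 of the 6 were called lower (KRT19, CD24 and SOX9) and 3 higher in KO DMSO cells. The higher ones were SPP1, at 29.3 CPM in KO DMSO and 11.9 CPM in WT DMSO cells, SOX4, at 40.2 and 18.5 CPM, and KRT7, at 1.92 and 0.947 CPM. The sum of 7 mesenchymal markers (of 9 listed) was 280 to 303 CPM in KO and 125 to 142 CPM in WT libraries, with 4 of the 7 called higher and 1 lower in KO DMSO cells. The part of these shifts in the transporter differences between the genotypes was not tested.

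Some marker sums also moved with the drugs. The hepatocyte sum was 76830 to 78091 CPM in KO PB, 73573 to 73789 in KO CITCO and 74710 to 76598 in KO DMSO libraries, with PB just above DMSO. In WT libraries it was 162451 to 169828 CPM with PB, 151988 to 152190 with CITCO and 165979 to 170500 with DMSO, overlapping between PB and DMSO and lower with CITCO. The mesenchymal sum was 300.02 to 303 CPM in KO PB and 280 to 292 in KO DMSO libraries. It was 125 to 127 CPM in WT PB and 142 in both WT DMSO libraries, so that it lay higher with PB in KO cells and lower with PB in WT cells. This sum does not speak for the list. With PB 1 of the 7 was called higher and 0 lower in KO cells, against 3.87% and 3.09% of all loci. In WT cells 0 of the 7 were called higher and 2 lower, against 2.66% and 3.76%. POSTN was lower with PB in both genotypes. It averaged 16.1 CPM in KO PB and 19.8 in KO DMSO libraries, and 7.23 in WT PB and 18.6 in WT DMSO libraries. DCN (log2 0.39, adjusted p = 0.0275) and POSTN (1.01, adjusted p = 0.000438) were the 2 of 7 mesenchymal markers called in the difference of PB responses. Of 9 hepatocyte markers 4 were called higher and 0 lower in that difference, against 0.798% and 0.209% of all loci. With PB in KO cells 4 of the 9 were called higher and 0 lower, against 3.87% and 3.09% of all loci. In WT cells 1 was called higher and 2 lower with PB, against 2.66% and 3.76%. The biliary sum was 253 to 254 CPM in KO CITCO and 275 to 285 in KO DMSO libraries. It does not speak for the list either. KRT19 (65.8 against 83.9 CPM) and SOX4 (30.6 against 40.2) averaged lower in KO CITCO than KO DMSO libraries. SPP1 (32.9 against 29.3) and KRT7 (2.13 against 1.92) averaged higher. Of the 6, 0 were called higher and 2 lower, against 0.386% and 0.424% of all loci. The endothelial markers PECAM1 and KDR (2 of 4 listed) summed to 63.4 to 64.6 CPM in KO PB and 85.2 to 89.9 in KO DMSO libraries. In WT cells they summed to 81.8 to 82.6 CPM with PB and 105 to 114 with DMSO. Almost all of this sum was KDR, at 62.1 CPM in KO PB and 85.5 in KO DMSO libraries on average. PECAM1 averaged 1.87 and 2.07 CPM there. In each genotype 1 of the 2 was called lower with PB, so the sum does not speak for endothelial genes. CD14, the 1 leukocyte marker of 4 listed that was among the loci and a gene that hepatocytes also express, had 17.6 to 18.8 CPM in KO PB and 6.13 to 7.23 in KO DMSO libraries. In WT cells CD14 had 7.46 to 7.84 CPM with PB and 3.70 to 4.30 with DMSO. The part of these markers in the drug responses of the transporters was not tested.

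**Figure D4:**
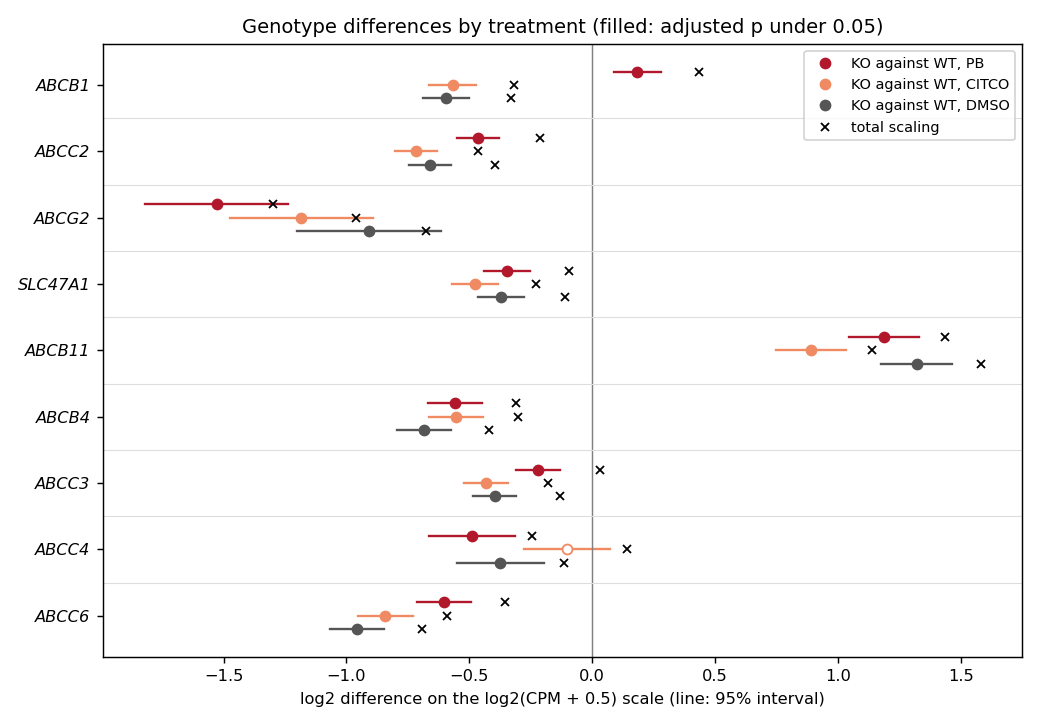
KO minus WT difference of each transporter under PB, CITCO and DMSO (log2, horizontal axis), with 95% intervals; filled points passed an adjusted p of 0.05, and crosses give the value after scaling each library to its total. ABCB11 is the 1 transporter to the right of 0 under all 3 treatments (1.19, 0.89 and 1.32), and every cross lies to the right of its point.

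Other genes of bile and drug export, from a list of 15 of which 12 were among the loci, included some that responded to PB. PB raised 5 of the 12 in KO cells and 2 in WT cells, against 3.87% of all loci called higher in KO and 2.66% in WT cells, and the difference between those counts was not tested. SLC51B, a subunit of the bile salt carrier toward the blood, averaged 1.17 CPM in KO PB and 0.107 CPM in KO DMSO libraries (log2 1.46, adjusted p = 9.37e-05), and 2.91 CPM in WT PB and 0.926 CPM in WT DMSO libraries (1.27, adjusted p = 0.00052). The sterol exporters ABCG8 (0.64) and ABCG5 (0.50), the cation exchanger SLC47A2 (0.48) and the cholesterol exporter ABCA1 (0.20) rose in KO cells, and the aminophospholipid flippase ATP8B1 (0.24) in WT cells. The PB response was called as different between genotypes for ABCG5 (0.61, adjusted p = 0.0166) and ABCG8 (0.57, adjusted p = 0.000283). CITCO raised SLC47A2 in WT cells (0.55, adjusted p = 0.0384). Between KO DMSO and WT DMSO cells 4 of the 12 were higher and 5 lower, against 28.3% and 29.4% of all loci. SLC47A2 averaged 26.9 CPM in KO DMSO and 2.46 CPM in WT DMSO cells (log2 3.24), and SLC51A, the partner of SLC51B, 21.9 and 5.17 CPM (1.99). ABCG8 (-2.49) and ABCG5 (-1.98) were lower in KO DMSO cells.

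Of 18 genes that build or sort the canalicular membrane, 16 were among the loci. PB lowered 5 in KO cells and 4 in WT cells, against 3.09% and 3.76% of all loci called lower, and raised none of them. The tight-junction protein CLDN1 fell by 0.24 in KO and 0.30 in WT cells (log2), and the scaffold PDZK1, which anchors transporters at the membrane, by 0.24 in KO and 0.17 in WT cells. CITCO lowered CLDN1 in WT cells (-0.20, adjusted p = 0.0231). PDZK1 averaged 98.0 CPM in KO DMSO and 301 CPM in WT DMSO cells (log2 -1.61, adjusted p = 5.66e-16). In that comparison 8 of the 16 were lower and 2 higher, against 29.4% and 28.3% of all loci. With total scaling 4 were lower and 7 higher, against 2311 lower and 8308 higher of the 15822 loci tested.

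All 18 listed regulators were among the loci. PB raised NR1I3 (log2 0.54 in KO and 0.36 in WT cells), PPARA (0.21 in KO and 0.34 in WT cells) and NFE2L2 (0.23 in KO and 0.28 in WT cells), the gene of the antioxidant factor NRF2. CITCO raised NFE2L2 in KO (0.25) and in WT cells (0.27). Between KO DMSO and WT DMSO cells 12 were lower and 3 higher, against 29.4% and 28.3% of all loci. With total scaling 4 were lower and 6 higher, against 2311 lower and 8308 higher of the 15822 loci tested. The liver factors NR5A2 (-0.98) and HNF4A (-0.87) and the receptor partner RXRA (-0.50) were among those lower in KO cells. HNF4A averaged 171 CPM in KO DMSO and 313 CPM in WT DMSO cells.

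The loci whose levels ran most like those of 3 transporters were picked by Pearson correlation of log2(CPM + 0.5) over the 12 libraries among 11612 loci with a mean of at least 5 CPM. The libraries share their group and scaling, so these values are descriptions. ABCB1 was matched by HSPA9, a mitochondrial chaperone (r = 0.985), ALAS1, the first enzyme of heme synthesis (0.972), and DPYS, a pyrimidine-degrading enzyme (0.949). HSPA9 varied less than ABCB1 and was not highest in KO PB. It averaged 488 CPM in KO PB and 424 in KO DMSO libraries, and 491 in WT PB and 447 in WT DMSO libraries. ALAS1 averaged 121 CPM in KO PB, 60.8 in KO CITCO and 57.7 in KO DMSO libraries, against 95.3 in WT PB, 76.9 in WT CITCO and 69.5 in WT DMSO libraries. ABCC2 was matched by SLC47A1 (r = 0.995), CYB5A, the cytochrome b5 that donates electrons to P450 enzymes (0.995), and SULT2A1, a sulfotransferase of steroids and bile acids (0.987). Among the loci that matched ABCB11 were CA12 (0.985) and BBOX1 (0.984), both higher on average in KO than in WT cells.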

How the data were processed

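RNA sequencing libraries of HepaRG cells were read as 1 deposited table of 15822 loci. Per the labels' protocols, RNA was isolated with the miRNeasy kit and made into Illumina libraries. The submitters' processing notes name edgeR 2.12, Cuffdiff 2.1.1, Cufflinks 2.1.1, TopHat2 2.0.10 and Bowtie 1.0.0, and the builds GRCh38 and GRCh37, without saying what each was used for. The deposited values are a normalized signal called CPM here: the columns sum to 0.900 to 0.935 M (mega) in KO and 1.07 to 1.11 M in WT libraries, so they carry normalization factors. The plan assumed plain CPM or counts, and limma was used as the unit needs. Values were checked for whole reads up to an upper limit of reads, so the most abundant loci were not checked. All values below that limit, in KO and WT columns alike, were whole multiples of the value of 1 read within 0.001 reads. A separate general check accepted recovered whole reads for the WT columns only. For that reason edgeR 4.0.16 and DESeq2 1.42.0 were run on the 6 WT libraries as alternatives. The authors also deposited comparison tables with log2 fold changes and p-values with FDR, used only where named.

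limma 3.58.1 (R 4.3.3, trend on expression) was fitted to log2(CPM + 0.5) of all 12 libraries with 6 group means, 6 residual degrees of freedom and 11 comparisons, over the loci reaching 1 CPM in 2 or more libraries. The 9 genes and the lists were chosen with earlier results of these data known. Named genes were the 9 transporters, NR1I3, CYP2B6, the 3 loci most correlated with each of ABCB1, ABCC2 and ABCB11, and at most 4 per comparison of 3 context lists, those past the test with the largest changes. Some genes that this rule names are not reported here. Deviations of same-numbered libraries had a median r of 0.0003 over 15 pairs of groups (-0.0781 to 0.288). With 4 pairs over 0.1, some deviated together in part. The main fit did not take the numbers to pair libraries, and a fit with the number as a block is given below. Gene places and exon lengths came from GENCODE 29, and the sequences are RefSeq's. Precision is limited by 2 libraries per group.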

Additional observations from a re-analysis of the deposited data

Results flagged for a closer look

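The PB response of 2 transporters differed between the genotypes by the test of the difference itself. ABCB1 differed by log2 0.78 (KO minus WT, limma adjusted p = 1.90e-06), with 258 and 257 CPM in KO PB and 90.3 and 90.5 CPM in KO DMSO libraries, and 237 and 217 CPM in WT PB and 138 and 136 CPM in WT DMSO libraries. ABCC6 differed by log2 0.35 (adjusted p = 0.0248), with 100.2 and 90.2 CPM in KO PB and 83.6 and 85.1 CPM in KO DMSO libraries. Its WT values were 139 and 151 CPM with PB and 162 and 167 CPM with DMSO. Unlike that of ABCB1, the ABCC6 call depended on the settings. It was lost with a constant prior spread (limma adjusted p = 0.236) and when CITCO libraries were excluded (0.0872). With single libraries left out, the ABCC6 difference ranged from log2 0.28 to 0.43. The copies ABCC6P1 and ABCC6P2 also make the ABCC6 values uncertain.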

How the results depend on the processing

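The PB calls of ABCB1, ABCC2, SLC47A1 and ABCB11 in both genotypes, and the ABCB1 difference of PB responses, kept direction and call in every alternative run for them. Count models were run for the WT calls alone, not for the KO calls or the difference. The weakest of these calls was ABCB11 with PB in KO cells, which came close to the threshold with 1 library left out (log2 0.33 to 0.43). For PB in WT cells 5 instead of 7 transporters were called with a constant prior spread, in a fit of the compared libraries alone, in edgeR and in DESeq2. In that order 3.40%, 2.56%, 3.69% and 4.48% of all loci were called, against 2.66% higher and 3.76% lower in the main fit. Total scaling gave 8 instead of 9 for KO against WT under DMSO, 7 instead of 9 under PB, and 4 instead of 5 for PB against CITCO in each genotype. It called 67.1% of all loci for KO against WT under DMSO and 66.7% under PB. For PB against CITCO it called 6.22% in KO and 7.58% in WT cells. Larger relative moves of the counts follow. A constant prior spread gave 2 for CITCO in WT cells, 0 for CITCO in KO cells, 1 for the difference of PB responses and 3 for PB against CITCO in WT cells. It called 0.608%, 0.127%, 0.158% and 2.75% of all loci in these comparisons, in that order. The main fit called 1.18% higher and 1.02% lower for CITCO in WT cells, and 0.386% and 0.424% in KO cells. Its shares were 0.798% and 0.209% for the difference of PB responses, and 2.65% and 3.63% for PB against CITCO. A fit of only the libraries compared gave 2 for CITCO in WT cells and 1 for the difference of PB responses. It called 1.05% and 0.535% of all loci there. For CITCO in WT cells edgeR gave 2, with 0.894% of all loci called. The remaining changes of a count under these settings were by 1 transporter. Leaving out 1 library gave 4 to 7 for PB in WT, 2 to 4 for CITCO in WT, 4 to 5 for PB in KO and 1 for CITCO in KO cells. It gave 9 for KO against WT under DMSO and PB, 8 under CITCO, 1 to 2 for the difference of PB responses, 0 to 1 for that of CITCO responses, and 3 to 5 for PB against CITCO in each genotype. With the replicate number as a block 6 were called for PB in WT cells (ABCC6 lost, adjusted p = 0.0532) and no other count changed. The cause was not tested.

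Some values changed sign, mostly ones near 0, and none was called after the change. For PB in KO cells ABCG2 gave -0.0011 with a pseudocount of 1, -0.026 with total scaling and -0.0054 with quantile normalization, ABCB4 gave -0.020 with total scaling, and ABCC3 gave -0.0045 and -0.0078 with total scaling and quantile normalization. Total scaling gave 0.031 for ABCC3 in KO against WT under PB, where the main fit had called it lower (-0.22, limma adjusted p = 0.000203). It gave 0.14 for ABCC4 under CITCO, which the main fit had at -0.10 without a call. Over left-out libraries ABCC4 with CITCO in WT cells ranged over -0.15 to 0.043 and ABCC6 with PB against CITCO in WT cells over -0.094 to 0.018. With PB in KO cells the ranges were -0.20 to 0.20 for ABCG2, -0.0091 to 0.033 for ABCB4 and -0.018 to 0.073 for ABCC3. With CITCO in KO cells they were -0.17 to 0.23 for ABCG2, -0.023 to 0.069 for ABCB11 and -0.018 to 0.087 for ABCC3. The difference of CITCO responses ranged over -0.089 to 0.017 for ABCC3 and -0.0033 to 0.053 for ABCB1. PB against CITCO in KO cells ranged over -0.086 to 0.034 for ABCG2 and -0.059 to 0.046 for ABCC3.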
